A study of Mus musculus with 23 samples.

Results

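The T cell receptor has no signalling tail of its own and works through the CD3 chains. The genes described are Cd3e, Cd3d and Cd3g, which encode the epsilon, delta and gamma chains of CD3, Cd247, which encodes the zeta chain, and 5 genes that act next to the receptor in T cells: Thy1, Lck, Zap70, Txk and Lat. They were chosen by name, and every array probe matched to them through its RefSeq accession was used, which gave 12 probes for 9 of the 18217 genes with a probe. Of these probes 11 passed the filter on dim signals and all 9 genes were tested; the other one, for Cd247, gave no signal well above background (the scanner software's call) in any of the 22 samples.

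RNA was measured on single-colour Agilent whole-genome arrays in 3 groups of mouse samples, all from Cd3e knockout mice (CD3eKO) of strain C57BL/6 x 129. The first group was 9 cultured B cell lymphoma lines that were derived from tumour-bearing spleens of Atm knockout mice (ATMKO.CD3eKO) and grown in suspension; their sex is not given. The second was 6 tumour-free spleens of ATMKO.CD3eKO mice, all female, called KO spleens below. The third was 7 spleens of ATMWT.CD3eKO mice, 4 male and 3 female, called WT spleens below, in which Atm is intact. Atm encodes a kinase that signals DNA breaks. No group had an intact Cd3e, the labels give no ages and no treatment, and a line is a selected culture while a spleen is a mixture of cell types. The titles give each line its own number, but nothing says that all lines came from different mice. The p-values set each group difference against the spread between these samples and take the lines as independent.

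In a T cell, Lck phosphorylates the tails of the CD3 and zeta chains, Zap70 docks on them and phosphorylates the adaptor Lat, and Tec family kinases such as Txk join the complex assembled on Lat. Loss of Cd3e stops T cell development. Natural killer (NK) cells, which do not need the T cell receptor, also use the zeta chain, Lck, Zap70 and Lat, and B cells signal through a parallel set of genes that includes Cd79a, Syk and Blnk.

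Levels are log2 processed signals minus the 75th percentile of the same array, so 0 is the signal of a probe at that percentile; they were compared between samples for 1 probe at a time and never between genes. That percentile was 491.9 to 789.8 in the arrays of the lines, 668.6 to 897.7 in KO spleens and 569.7 to 830.3 in WT spleens. Atm, the deleted gene, had levels of -4.38 to -2.77 in the lines and -2.69 to -2.07 in KO spleens, against -0.66 to 0.00 in WT spleens, and no WT spleen overlapped the other samples. The B cell genes Ms4a1 and Cd79a were measured above background in 9 of 9 lines. Of the 10 tested genes in the list of B cell markers described further on, 8 to 10 were well above background in a line. Arrays lay on 6 slides. Slide 1 held only lines 7, 8 and 9, and the other 5 slides held both lines and spleens.

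Line 8 was measured on 2 arrays, one of them titled as a repeat, and these differed about as much as arrays of different lines did. Between the 2 arrays 4.41% of probes were more than 4-fold apart, against 1.52% to 8.15% in 44 pairs of arrays from different lines, of which 13 were at or below the repeat pair, and 0.218% to 1.23% in pairs of spleens of a genotype. The design text of the series counts 10 lines, whereas the titles name 9. The arrays were averaged into 1 sample. For the 9 genes and their neighbours, calls that are lost without these arrays are given both ways, by gene or by count. Without them the lists of signal transduction genes and T lineage factors described further on had 15 and 7 genes lower than in KO spleens, against 16 and 6 with them.

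Of the 9 genes, 3 were higher in the lymphoma lines than in KO spleens, 5 were lower and 1 did not pass the test (limma, adjusted p at most 0.05 over 13765 genes). Over all genes tested 41.5% were higher and 28.9% lower, so a call in either direction was common. The 3 higher genes were the neighbours Cd3g, Cd3d and Cd3e. The zeta chain gene Cd247, Thy1, Txk, Lat and Zap70 were lower, and Lck did not pass. No line was well above background for Thy1 and Txk, which passed the filter on dim signals through spleens alone. Those 2 genes could hardly come out higher in the lines. Groups did not overlap for 5 of the 9 genes, against 40.8% of all genes. The median log2 difference over the 9 was -1.61, beside 0.178 over all genes tested; it was -1.02 with median centring and -0.976 with the normexp background correction. Against WT spleens 3 genes were higher and 6 lower, beside 40.3% and 30.9% of all genes, and again 5 of 9 did not overlap, beside 41.8%. The Zap70 call is the weakest of these: without both arrays of line 8 the count against KO spleens was 3 higher and 4 lower.

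**Figure D1:**
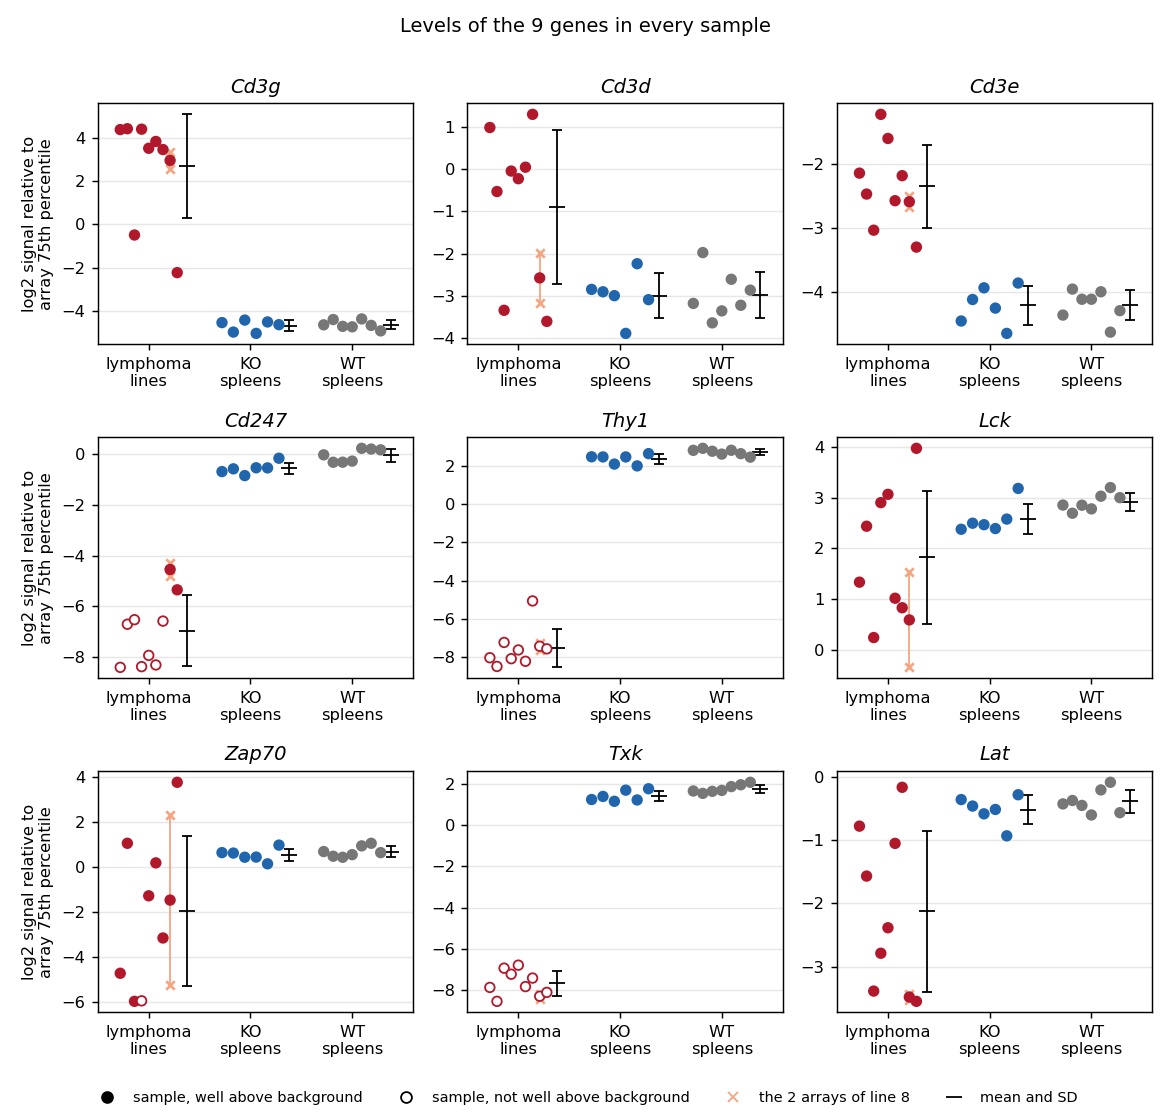
Level of each of the 9 genes in every sample (log2 signal relative to the array's 75th percentile; 1 probe a gene). Filled points were well above background and open points were not, crosses are the 2 arrays of line 8, and bars are the mean and SD of 9 lines, 6 KO spleens and 7 WT spleens. All 9 lines lie above all spleens for Cd3g and Cd3e, and all 9 lie below all spleens for Cd247, Thy1 and Txk.

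Cd3g, Cd3d and Cd3e are adjacent on chromosome 9 in the RefSeq annotation, with Cd3g and Cd3d on opposite strands. Their promoter windows and that of Cd247, on chromosome 1, are shown because the first 3 genes were higher in the lines while Cd247, which encodes a chain of the same complex, was lower. Each window runs 250 bases before to 50 after the gene's start (RefSeq, GRCm38.p6), 5′ to 3′ on the gene's strand, and capitals mark E-boxes (CANNTG on either strand, the letters that E proteins bind).
Cd3g (chr9:44980382-44980681, minus strand): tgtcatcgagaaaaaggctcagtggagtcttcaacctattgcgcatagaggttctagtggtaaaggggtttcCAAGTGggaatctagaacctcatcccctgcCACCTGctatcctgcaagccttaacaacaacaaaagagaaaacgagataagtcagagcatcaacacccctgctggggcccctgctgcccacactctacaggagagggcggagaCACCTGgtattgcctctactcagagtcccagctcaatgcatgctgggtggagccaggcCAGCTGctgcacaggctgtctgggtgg
Cd3d (chr9:44981536-44981835, plus strand): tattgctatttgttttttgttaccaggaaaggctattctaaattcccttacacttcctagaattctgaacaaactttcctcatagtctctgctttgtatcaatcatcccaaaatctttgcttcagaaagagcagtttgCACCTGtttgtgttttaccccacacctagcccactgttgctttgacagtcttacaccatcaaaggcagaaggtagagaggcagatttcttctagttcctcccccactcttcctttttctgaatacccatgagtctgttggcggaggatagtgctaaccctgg
Cd3e (chr9:45009562-45009861, minus strand): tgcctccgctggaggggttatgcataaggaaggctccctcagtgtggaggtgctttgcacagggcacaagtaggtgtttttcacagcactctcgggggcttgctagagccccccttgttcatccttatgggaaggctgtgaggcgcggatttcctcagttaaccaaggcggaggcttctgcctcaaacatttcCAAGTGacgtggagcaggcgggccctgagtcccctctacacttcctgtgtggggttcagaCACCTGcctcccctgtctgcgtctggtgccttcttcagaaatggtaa
Cd247 (chr1:165788431-165788730, plus strand): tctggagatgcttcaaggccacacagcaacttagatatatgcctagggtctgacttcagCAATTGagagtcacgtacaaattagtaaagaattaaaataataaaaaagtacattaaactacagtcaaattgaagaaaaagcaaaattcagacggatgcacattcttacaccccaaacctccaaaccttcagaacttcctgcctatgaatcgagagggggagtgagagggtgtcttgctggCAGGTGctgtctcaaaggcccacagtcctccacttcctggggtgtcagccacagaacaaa

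The Cd3g window held 4 E-boxes, those of Cd3e and Cd247 held 2 each and that of Cd3d held 1; the median over 32851 promoter windows of this length was 1, and 72.3% held at least 1. The ETS core AGGAAG (either strand) was found 2 times in each of the Cd3d, Cd3e and Cd247 windows and 0 times in the Cd3g window, while 35.4% of all windows held it. The TCF/LEF letters CTTTGA (either strand) were found 2 times in the Cd3d window, 1 time in that of Cd247 and 0 times in those of Cd3g and Cd3e, against 16% of all windows. The RUNX letters TGTGGT were in none of these 4 windows and in 16.8% of all windows. Of the 9 genes 8 had a window in the table, 12 windows in all, and 9 of the 12 held the ETS core.

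Cd3g, the gamma chain gene, showed the largest increase of the 9. Its level in the lines had a lowest value of -2.21, a median of 3.51 and a highest value of 4.40, against -5.01, -4.56 and -4.40 in KO spleens and -4.89, -4.64 and -4.34 in WT spleens. Every line lay above every spleen, and 7 of the 9 lines were between 2.94 and 4.40. Lines 3 and 9 stood lower, at -0.48 and -2.21. The log2 difference from KO spleens was 7.34 ± 0.78 (SE; limma adjusted p = 2.9e-08), a 162.5-fold difference that ranked 16 of 13765 genes by size of increase, and that from WT spleens was 7.29 ± 0.74 (limma adjusted p = 1.33e-08). Within the 5 slides that held lines and KO spleens it was 4.52 to 9.08.

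Cd3d, the delta chain gene, was higher in most lines but not in all. Levels were 0.99, -0.53, -3.35, -0.04, -0.22, 0.05, 1.30, -2.58 and -3.61 in lines 1 to 9, against -3.89 to -2.24 in KO spleens and -3.64 to -1.98 in WT spleens. Lines 3, 8 and 9 lay inside the spleen range and the other 6 lines lay above it. The value of line 8 is a mean of -3.18 on the repeat array and -1.98 on the other, which is above every KO spleen. The group difference was 2.11 ± 0.63 from KO spleens (SE; limma adjusted p = 0.00516) and 2.09 ± 0.60 from WT spleens (adjusted p = 0.00379, same fit). Within slides it was 0.55 to 3.84 against KO spleens, and on slide 4, which held line 3, it was -0.09 against WT spleens.

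Cd3e was itself higher in the lines than in spleens, by 1.87 ± 0.24 on the log2 scale against KO spleens (SE; limma adjusted p = 5.04e-07) and by 1.87 ± 0.23 against WT spleens (adjusted p = 2.31e-07, same fit). The lines had a lowest level of -3.30, a median of -2.47 and a highest level of -1.22, against -4.65, -4.19 and -3.86 in KO spleens and -4.63, -4.12 and -3.96 in WT spleens. The signal exceeded background in all 22 samples, and the lines did not overlap either group of spleens. All samples carry the knockout, and the sources used here do not say which part of Cd3e was deleted, so the probe checks neither the deletion nor the protein. Lines 3 and 9 had the 2 lowest levels for each of the 3 adjacent genes.

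The zeta chain gene Cd247 went the other way. It was well above background in lines 8 and 9 alone, at -4.55 and -5.35, while the other 7 lines were between -8.39 and -6.52 and not well above background. KO spleens had levels of -0.86 to -0.18 and WT spleens -0.34 to 0.21. The log2 difference was -6.39 ± 0.46 from KO spleens (SE; limma adjusted p = 7.02e-11) and -6.90 ± 0.44 from WT spleens (limma adjusted p = 7.46e-12), and within slides it was -7.96 to -5.97 against KO spleens. The second probe of the gene gave -3.62 ± 0.39 from KO spleens. Lines 7 and 8 were the ones well above background on it, so the probes disagree on which lines hold a signal. On that probe line 8 passed on the repeat array (-5.33) but not on the other (-7.12). Lines 7, 8 and 9 are the lines of slide 1, which held no spleens, and the part of slide in these signals was not tested.

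Thy1, a surface glycoprotein of T cells that mouse NK cells, innate lymphoid cells and stroma can also carry, was not well above background in any line on either of its probes. On the brighter probe KO spleens had levels of 1.98 to 2.62 and WT spleens 2.44 to 2.90. The lines were at least 360.7-fold lower than KO spleens and at least 462.9-fold lower than WT spleens (limma adjusted p = 1.92e-16 and 3.86e-17), where the bound sets each line at the lowest signal that was well above background on its array. The second probe gave at least 8.59-fold lower than KO spleens. Both probes passed the filter on dim signals through spleens alone, so the lower call of Thy1 is not separate support. Thy1 also lies on chromosome 9, with 54 annotated genes between it and the Cd3 genes.

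Of the 3 kinases, Txk, a Tec family kinase, was not well above background in any line, with KO spleens at 1.15 to 1.76 and WT spleens at 1.54 to 2.08. The lines were at least 192.2-fold lower than KO spleens and at least 247.1-fold lower than WT spleens (limma adjusted p = 1.03e-18 and 1.89e-19). Because Txk passed the filter on dim signals through spleens alone, its lower call is not separate support.

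Lck, the kinase that starts the cascade, stayed well above background in 9 of 9 lines. The levels in lines 1 to 9 were 1.33, 2.44, 0.24, 2.90, 3.06, 1.02, 0.83, 0.59 and 3.97, against 2.38 to 3.18 in KO spleens and 2.69 to 3.20 in WT spleens. Line 9 lay above every spleen, lines 2, 4 and 5 lay among the KO spleens, and lines 1, 3, 6, 7 and 8 lay below every spleen. The difference from KO spleens was -0.76 ± 0.44 (SE; limma adjusted p = 0.125), which did not pass, but without line 9 it was -1.03 (limma adjusted p = 0.0164). From WT spleens it was -1.09 ± 0.42 (limma adjusted p = 0.0233), a call that median centring ends (-0.52, limma adjusted p = 0.26).

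Zap70, the kinase that docks on phosphorylated zeta and CD3 tails, differed most among the lines. Levels were -4.74, 1.04, -5.99, -5.96, -1.30, 0.17, -3.17, -1.49 and 3.75 in lines 1 to 9, against 0.12 to 0.95 in KO spleens and 0.41 to 1.04 in WT spleens. Line 9 stood above every spleen, lines 2 and 6 lay at the top and inside of the spleen range, and the other 6 lines lay below it, line 4 with a signal not well above background. The value of line 8 is a mean of 2.29 on the repeat array and -5.27 on the other, which lie on opposite sides of the spleens. The difference from KO spleens was -2.49 ± 1.08 (SE; limma adjusted p = 0.0452), and that from WT spleens was -2.63 ± 1.03 (limma adjusted p = 0.0276). Without both arrays of line 8 the first was -2.55 (limma adjusted p = 0.0513), so this call did not hold, and within slides 3 and 6 it was 0.53 and 0.04.

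Lat, the adaptor that Zap70 phosphorylates, was lower in the lines. Lines had a lowest level of -3.55, a median of -2.39 and a highest level of -0.17, against -0.93, -0.49 and -0.28 in KO spleens and -0.60, -0.43 and -0.09 in WT spleens. Line 1 lay inside the KO spleen range, line 7 above it, and the other 7 below it. The difference was -1.61 ± 0.42 from KO spleens (SE; limma adjusted p = 0.002) and -1.74 ± 0.41 from WT spleens (limma adjusted p = 0.000624).

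**Figure D2:**
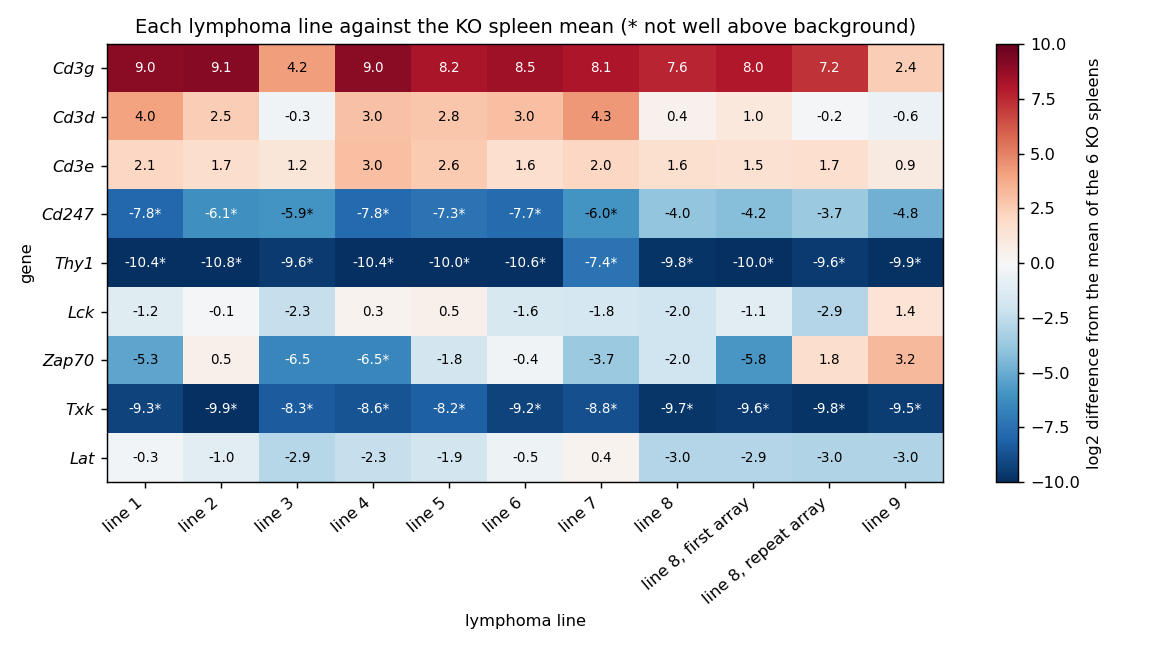
Log2 difference of each lymphoma line from the mean of the 6 KO spleens for the 9 genes, with the average of line 8 followed by its 2 arrays; stars mark values not well above background. Cd3g is above the KO mean in every line, and Zap70 has opposite signs on the 2 arrays of line 8. Lines 3 and 9 have the lowest values for Cd3g, Cd3d and Cd3e, and those for Cd3d are below the KO mean.

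No single level of the 9 genes described the lines. In line 9 Cd3g, Cd3d and Cd3e were at their lowest while Lck and Zap70 were at their highest, and Cd247 was one of the 2 measured values. Line 3 shared the low Cd3 levels but had the lowest Lck and Zap70 levels. Lines 4 and 5, whose arrays were the closest pair of lines, with 1.52% of probes more than 4-fold apart, had similar Cd3g, Cd3d, Cd3e and Lck levels but Zap70 at -5.96, not well above background, and -1.30. By the root mean square difference of centred log2 levels over the 9 lines, the genes with patterns nearest to Cd3g were Fabp4 (0.874), Runx3 (0.931) and Svil (1.12), against an SD of 2.38 for Cd3g itself. Those nearest to Cd3d were Klk1b27, C8a and Lst1, and those nearest to Cd3e were Tcea2, Disp1 and Fam168a. Over all 22 samples Cd3g was most like Ldlrad4 (1.20), Morn4 (1.23) and Meis2 (1.24), against an SD of 3.97, Cd3d most like Clec2g, Itln1 and Klk1b7-ps, and Cd3e most like Tbc1d19, Marchf9 and Nicn1. Cd247 was most like Lpl, Kcnip3 and Prkcq, Thy1 most like Grk3, Fcna and Dock5, Lck most like Lnpep, Egfl8 and Nfatc1, Zap70 most like Tmem121, Pstpip2 and Zfp105, Txk most like Clec10a and Pf4, and Lat most like Gpm6b, Gsn and Zscan2. Thy1 and Txk were not well above background in any line, and Cd247 only in 2. Their likeness over all samples therefore rests largely on the gap between spleens and lines.

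The increase of the Cd3 genes was set against the 10 annotated genes on either side of them. Of these 20 genes 10 had a probe and were tested. Against KO spleens 3 were higher, 4 lower and 3 did not pass, beside 41.5% higher and 28.9% lower over all genes. The log2 differences lay between -4.50 and 0.99. Ube4a, a ubiquitin ligase gene on the Cd3g side, was the clearest of the higher ones, with 0.25 to 1.37 in the lines and -0.34 to 0.14 in KO spleens (0.80 ± 0.15; SE; limma adjusted p = 5.34e-05). Atp5l rose by 0.47, which turned to -0.02 under quantile normalisation, and Mpzl3 by 0.62, which missed the threshold without both arrays of line 8. On the Cd3e side Scn2b, a sodium channel subunit gene, was at -8.80 to -5.51 in the lines and well above background in 2 of them, against -3.25 to -2.39 in KO spleens (-4.50 ± 0.42; SE; limma adjusted p = 4.15e-09). Jaml fell by 1.59, Il10ra, which encodes an interleukin-10 receptor chain, by 1.04, and Tmprss4 was at least 1.80-fold lower. Tmem25, Ttc36 and Mpzl2 did not pass against KO spleens. Against WT spleens 5 of the 10 were higher and 4 lower, beside 40.3% and 30.9% of all genes. Mpzl2 (2.24) and Tmem25 (1.27) were among the higher ones. Without both arrays of line 8, 4 of the 10 were higher and 4 lower than in WT spleens. The Mpzl2 difference was close in size to those of Cd3d (2.09) and Cd3e (1.87) and below that of Cd3g (7.29).

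**Figure D3:**
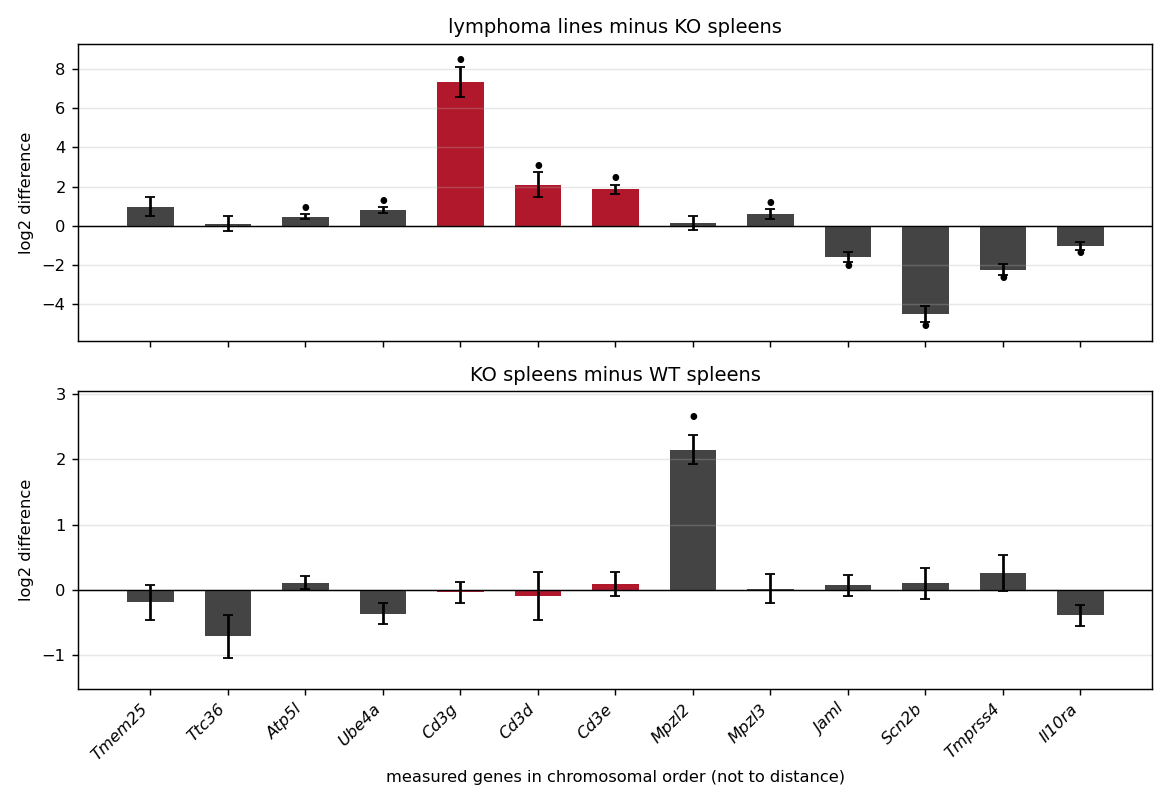
Log2 difference (bars, with SE) of Cd3g, Cd3d and Cd3e (red) and of the 10 measured genes around them (grey) in chromosomal order, for lines minus KO spleens above and KO minus WT spleens below; dots mark differences that passed the test. Cd3g stands out among the lines' differences at 7.34, and Mpzl2 is the gene that passed between the spleens.

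KO and WT spleens gave a different picture of this stretch of chromosome 9. Cd3g, Cd3d and Cd3e did not pass between KO and WT spleens, with log2 differences of -0.03 ± 0.16, -0.10 ± 0.37 and 0.09 ± 0.18 (SE). Because all KO spleens were female, the fit had a sex term, and each difference is that of the 6 KO spleens from the 3 female WT spleens. Mpzl2, an adhesion gene directly next to Cd3e, was higher in KO spleens, at -2.88 to -2.19, against -4.86 to -3.79 in WT spleens (2.15 ± 0.22; SE; limma adjusted p = 0.00113). The groups did not overlap, which held for 4.32% of all genes. The lines had -4.63 to -1.31, a difference from WT spleens of 2.24 ± 0.34 (SE; limma adjusted p = 5.04e-06). Atm, the gene that differs by design between these spleens, is also on chromosome 9, with 167 annotated genes between it and the Cd3 genes.

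Among the 9 genes 2 were lower in KO than in WT spleens and 7 did not pass, beside 2.16% of all genes lower and 1.64% higher. The median log2 difference was -0.279, beside -0.0544 over all genes, and no gene separated the groups. Cd247 was at -0.86 to -0.18 in KO spleens, against 0.15 to 0.21 in the 3 female and -0.34 to -0.05 in the 4 male WT spleens, a difference of -0.76 ± 0.13 (SE; limma adjusted p = 0.00872). Txk was at 1.15 to 1.76 in KO spleens, against 1.87 to 2.08 in female and 1.54 to 1.68 in male WT spleens (-0.56 ± 0.14; SE; limma adjusted p = 0.0438). Without the sex term the Cd247 difference was -0.51 and still passed, and that of Txk was -0.36 and did not (limma adjusted p = 0.0797). Without WT spleen 6 the differences were -0.76 and -0.56, nearly as before, and neither passed (limma adjusted p = 0.0512 and 0.148). Within the 5 slides that held both genotypes the log2 difference, without a sex term, was -0.79 to -0.27 for Cd247 and -0.52 to -0.16 for Txk. On slides 3 and 6 the only WT spleen was male. With slide as a fixed term the Txk difference was -0.44 and did not pass (limma adjusted p = 0.12). The second Cd247 probe gave -0.74 ± 0.22 and did not pass (SE; limma adjusted p = 0.0945).

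NK cell markers were also compared between KO and WT spleens. Of 23 tested NK genes 11 were lower in KO spleens and none was higher, beside 2.16% lower and 1.64% higher over all genes. Their median log2 difference was -0.611, beside -0.0544 over all genes. With slide as a fixed term 4 were lower and in female spleens alone 5. Over all genes the lower calls went from 297 to 110 and 178 in these settings. Klra8 and Klrb1c, which encode NK surface receptors, had log2 differences of -1.49 ± 0.35 and -1.29 ± 0.22 (SE; limma adjusted p = 0.0339 and 0.00816). The summed level of the 23 NK genes was 7.86 to 8.35 in KO spleens and 8.24 to 8.67 in WT spleens (log2). All 23 were well above background in every spleen. In bulk tissue fewer cells of a type and less RNA per cell cannot be told apart, and the part of NK cells in the Cd247 and Txk differences was not tested.

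**Figure D4:**
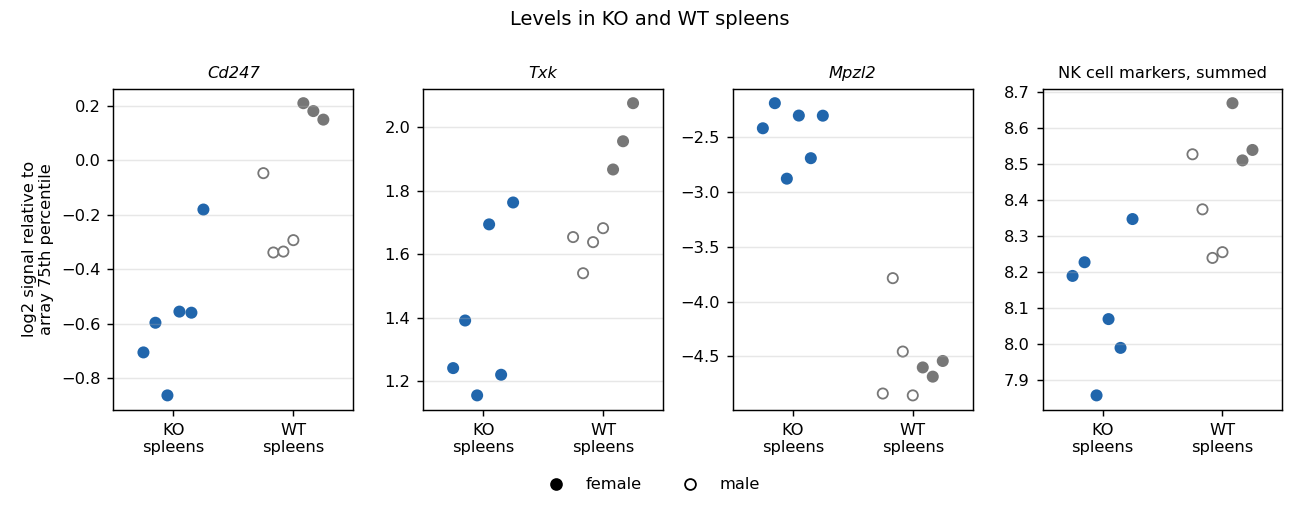
Levels of Cd247, Txk and Mpzl2 and the summed level of 23 NK cell markers in 6 KO and 7 WT spleens (log2 signal relative to the array's 75th percentile; filled, female; open, male). The 3 female WT spleens are above all KO spleens for Cd247, Txk and the NK sum, while male WT spleens overlap the KO spleens, and all KO spleens are above all WT spleens for Mpzl2.

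Other genes of T cell receptor signalling were mostly lower in the lines too. Of 27 tested signal transduction genes 16 were lower and 3 higher than in KO spleens, beside 28.9% and 41.5% of all genes. The median log2 difference was -0.482. The adaptor genes Fyb and Skap1 and the kinase gene Prkcq had fitted differences of -9.79 ± 0.25, -8.41 ± 0.51 and -7.27 ± 0.37 (SE), and gave a signal above background in 2, 1 and 1 of the 9 lines. The phosphatase gene Ptpn22 was the highest of the higher ones at 1.45 ± 0.18 (SE), a gene that B cells also express, followed by Ubash3b (0.84) and Sla (0.58), neither of which passed under quantile normalisation. Under median centring the same list had 11 higher and 10 lower, so the split of its calls depends on the scaling. Between KO and WT spleens 3 genes of this list were lower, Sla2 (-0.69), Prkcq (-0.67) and Skap1 (-0.61), beside 2.16% of all genes. None of them passed with slide as a fixed term.

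Of 15 tested coreceptors and surface partners 11 were lower and 4 higher, beside 28.9% and 41.5% of all genes. The median was -3.03, or -0.685 with normexp, where 10 were lower. Cd8a was at least 94.1-fold lower in the lines, and Icos and Il7r fell by 5.88 and 5.39 on the log2 scale. Ctla4, an inhibitory receptor gene, rose by 2.72 ± 0.31, Il2ra, which encodes the high-affinity interleukin-2 receptor chain, by 2.17 ± 0.20 and Sit1 by 1.65 ± 0.36 (SE), and Cd2 was the remaining higher gene at 0.99. Ctla4 was at -1.18 to 1.41 in the lines, against -3.00 to -2.22 in KO spleens and -6.07 to -4.27 in WT spleens. It was also higher in KO than in WT spleens (2.37 ± 0.31; SE; limma adjusted p = 0.00256), as was Cd6 (0.74 ± 0.13; SE; limma adjusted p = 0.0125), and the other 13 of this list did not pass there. Beside these 2 of 15, 1.64% of all genes were higher and 2.16% lower in KO than in WT spleens.

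Of 11 tested T lineage transcription factors 6 were lower and 1, Zbtb7b (0.54), higher, beside 28.9% and 41.5% of all genes. The list median was -1.21. With normexp the median was -0.189 and with median centring -0.624, each with 5 lower. Satb1, a chromatin organiser, fell by 10.98, with a measured signal in 1 line only, Gata3 was at least 47.8-fold lower and Tcf7, the T cell factor gene, at least 27.1-fold lower. Of 9 T cell receptor constant, pre-receptor and recombinase genes 2 had a probe; the tested one, the recombinase gene Rag1, was at least 17-fold lower, so no receptor chain gene was tested.

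Genes that do for the B cell receptor what Lck, Zap70 and Lat do for the T cell receptor were measured in the lines. Of 11 tested counterparts 5 were higher, 4 lower and 2 did not pass, with a median of 0.197. This split was near that over all genes, 41.5% higher and 28.9% lower. All 11 were well above background in every line. Blk, a Src family kinase gene, was higher by 0.90 ± 0.17, the adaptor gene Lat2 by 0.80 ± 0.13 and Plcg2 by 0.73 ± 0.12, while Btk fell by 0.89 ± 0.13 and Syk, the relative of Zap70, by 0.80 ± 0.17 (SE). Under median centring 7 were higher and 1 lower, and the Btk and Syk calls were lost. B cell markers, beside the same shares of all genes, were 3 higher, 3 lower and 4 not passing of 10. They were 7 higher and 3 lower under median centring, and 1 higher and 3 lower under quantile normalisation. The lower ones included Fcer2a (-10.6, with a measured signal in 1 line) and Cr2 (-7.26).

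Markers of other spleen cell types were lower in the lines, though not all were lost. All 23 NK markers were lower than in KO spleens, with a median of -7.92, or -7.08 with genes not measured in any line at their bound and -4.22 with normexp, and 5 to 12 of them were well above background in a line. Their summed level was 0.65 to 3.00 in the lines and 7.86 to 8.35 in KO spleens. Ccl5, Gzma and Klrd1, with a measured signal in 6, 1 and 1 lines, had fitted differences of -12.12, -11.79 and -11.01. All 8 tested innate lymphoid markers, 10 of 11 macrophage and monocyte markers and 6 of 8 stromal markers were lower as well. Klrg1, C1qc and Fn1 were among them. Over all genes 28.9% were lower. No line was well above background for 8 NK, 3 innate lymphoid, 1 macrophage and 5 stromal genes. Such genes passed the filter through spleens alone, so they could hardly come out higher in the lines. With them at their bound the stromal median was -0.815, against -2.67. The summed macrophage level was 4.65 to 6.76 in the lines and 7.02 to 7.63 in KO spleens, with 5 to 10 of the 11 genes above background in a line. The part of these cell types in the lower Thy1, Txk, Cd247 and Lat levels of the lines was not tested.

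**Figure D5:**
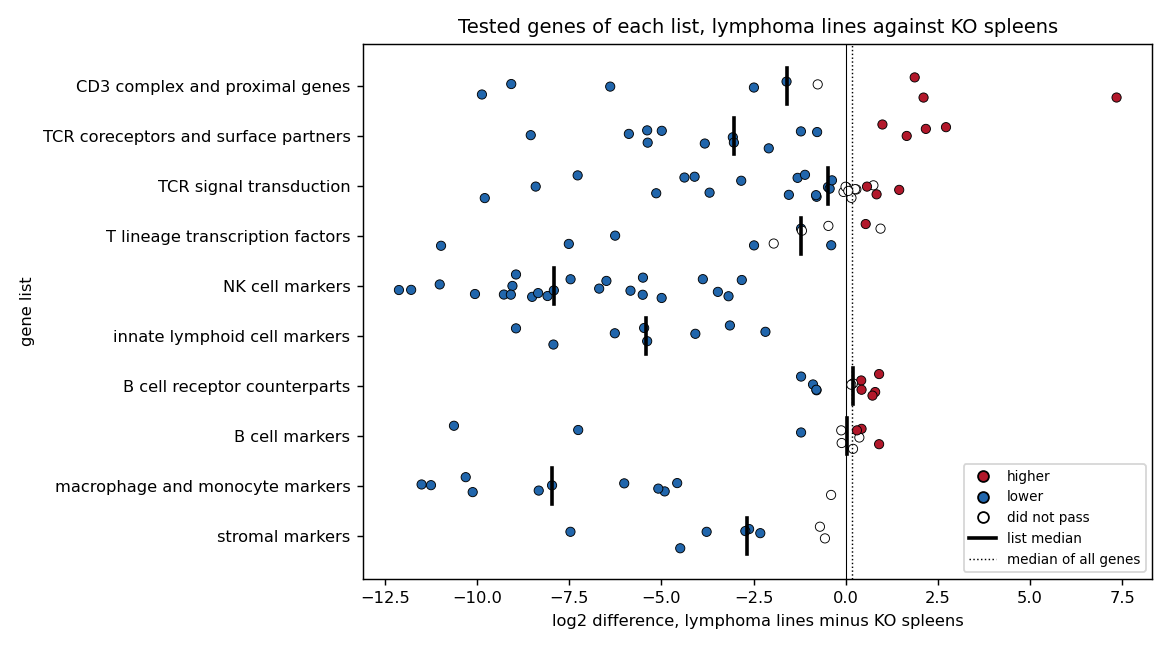
Log2 difference of each tested gene between lymphoma lines and KO spleens, by gene list (points; red higher, blue lower, white did not pass; thick bars are list medians and the dotted line is the median of all genes, 0.178). The NK list lies wholly below 0 with a median of -7.92, while the B cell receptor counterparts lie around 0 with a median of 0.197.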

How the data were processed

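RNA of 22 mouse samples was labelled with Cy3 and hybridised to 23 arrays. Per the file headers, the authors' deposited scanner files came from Agilent Feature Extraction 10.7.1.1 and hold background-subtracted processed intensities. The deposited value table holds log2 values of the same 41174 probes; its scale and centring were read from the data, since every probe has a median of 0 over the arrays, its array medians ran from -0.207 to 0.522, and its values after centring correlated with the scanner files at 0.999993 or more. It was an alternative.

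Control spots and outlier flags were left out, spots of a probe were averaged, and 26690 probes were named through RefSeq accessions. Levels were log2 processed intensity minus the array's 75th percentile. A probe was tested if well above background in at least 6 of 22 samples, and the probe with the highest mean stood for its gene (13765 genes). The 2 arrays of line 8 were averaged, and the line counted as well above background if either array was. Comparisons used limma 3.58.1 in R 4.3.3 (data.table version 1.17.8) and Benjamini-Hochberg adjustment over all genes: 1 fit of the 3 groups for the lines, and 1 fit of the spleens with sex for genotype. A difference against a group with no sample well above background is given as a bound. A gene with no line well above background passed the filter through spleens alone, so its lower call in the lines is not separate support. The fits were tested on simulated data. Normexp, an alternative, used the median signal and background with an offset of 50, because the files have no mean signal column. The number of arrays limits the precision.

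The genes and gene lists were chosen with earlier results of these data known. Named genes are the 9 genes, the 10 annotated genes on each side of the Cd3 genes, up to 3 called genes per direction of each other list by size of difference, and the 3 genes most like each of the 9; Klra8 and Klrb1c were added after their values were seen. Some genes that this rule names are not reported here. Gene order and promoters are RefSeq's for GRCm38.p6; the files name mm9, so no other coordinates are given. Alternatives were other scalings, normexp, the value table, other filters, slide terms, probe means, single arrays of line 8 and leaving out each sample. Treating the 2 arrays of line 8 as 2 samples, or leaving both out, was chosen after seeing the data.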

Additional observations from a re-analysis of the deposited data

Results flagged for a closer look

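Among 33 groups of samples tested for 1 extreme sample, 3 values stood apart from the rest of their group; chance flags about 1 in 20 groups. Lck in KO spleen 6 was 3.18, with the next KO spleen at 2.58 and the lowest at 2.38. The second probe of Cd247 in the same spleen was -2.81, with the next at -3.53 and the lowest at -3.82. Without KO spleen 6 the Lck difference between KO and WT spleens was -0.61 and passed the test (limma adjusted p = 0.00421), whereas with it the difference was -0.49 (limma adjusted p = 0.103). The main Thy1 probe in line 7 was -5.07, with the next line at -7.23 and the lowest at -8.48; none of these was well above background.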

How the results depend on the processing

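Between lines and spleens the direction of all 9 genes held under every alternative scaling, filter, background correction and single-sample omission, and the calls of Cd3g, Cd3d, Cd3e, Cd247, Thy1, Txk and Lat held against both kinds of spleen. Normexp shrank differences of dim probes against KO spleens, to -2.45 for Cd247, -5.00 for Thy1 and -4.63 for Txk. The Zap70 call against KO spleens was lost in 6 of 13 settings and 11 of 15 omissions, with differences of -3.13 to -1.26 and -3.20 to -1.99, and that against WT spleens in 2 of 13 and 3 of 16. Within slides Zap70 turned to 0.527 and 0.0414 against KO spleens and to 0.576 against WT spleens, and Cd3d to -0.0903 against WT spleens. Lck against KO spleens passed with quantile normalisation (-1.02) and normexp (-0.98). Median centring moved the median of all genes to 0.766 against KO and 0.71 against WT spleens, cut genes called lower to 2604 and 2740, and raised the share of calls that were higher to 76.4% and 75.2%, beside 59% and 56.6%. Between KO and WT spleens Cd3e turned to -0.002421 without the sex term and Cd3g to 0.01302 with quantile normalisation; over omissions of 1 sample Cd3d ran between -0.26 and 0.0834, Cd3e between -0.067 and 0.25 and Cd3g between -0.17 and 0.11, none of which passed. The Txk call was lost in 5 of 11 settings and 11 of 13 omissions. Genes called higher and lower between spleens numbered 226 and 297; they were 733 and 715 without the sex term, 146 and 110 with slide as a fixed term, and 358 and 469 with slide as a random block. Median centring gave 163 lower and female spleens alone 178 lower. Over omissions of 1 sample they ran between 74 and 352 higher and between 48 and 428 lower; the lowest counts were without WT spleen 6, and those without WT spleen 5 were 97 and 72, without WT spleen 7 95 and 102, and without KO spleen 1 149 and 168, while 352 were higher without KO spleen 6. The cause of these shifts was not tested. No paired analysis was possible because the labels give the groups no shared replicate numbers; slide was the only block fitted.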

Other observations

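Between KO and WT spleens Il22 and Areg, cytokine genes of innate lymphoid cells, were higher in KO spleens. Il22 was at -2.33 to -0.78 in KO spleens, against -4.00 to -2.92 in WT spleens (1.89 ± 0.30; SE; limma adjusted p = 0.00644). Areg was well above background in 6 of 6 KO spleens and 0 of 7 WT spleens, and was at least 3.17-fold higher in KO spleens (limma adjusted p = 0.00601). No line had Areg well above background either. It therefore passed the filter on dim signals through the KO spleens alone, and its call is not separate support for the difference. Il18r1 and Klrg1 of the same list were lower in KO spleens, with log2 differences of -0.93 ± 0.18 and -0.85 ± 0.18 (SE; limma adjusted p = 0.016 and 0.0222). The Klrg1 call was lost with slide as a fixed term and in female spleens alone (adjusted p = 0.0856 and 0.0538, limma), and Klrg1 is also on the NK list. The other 4 of the 8 tested genes did not pass. Over all genes 1.64% were higher and 2.16% lower in KO spleens. Among stromal markers Pdgfrb was higher in KO spleens (0.76 ± 0.18; SE; limma adjusted p = 0.0358), a call lost with slide as a fixed term, with median centring and in female spleens alone (limma adjusted p = 0.0599, 0.0539 and 0.0633).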
